A study of Mus musculus with 8 samples.

Results

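The genes described here are the 7 genes of the mitochondrial DNA that code for subunits of NADH dehydrogenase, ND1, ND2, ND3, ND4, ND4L, ND5 and ND6. They were taken from the deposited table as the probe sets annotated with 1 of these symbols alone, and each of the 7 had a single such probe set. They are 7 of 22180 genes named by a single-symbol probe set, and all 7 were among the 11712 genes tested after a filter on low values. The family was chosen because ND6 was higher in the VTA pull-downs, so every comparison that holds those arrays is given as a description without a p-value.

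RNA of mouse mPFC was measured on 8 Affymetrix arrays, and every mouse carried a GFP tag on its ribosomes that is switched on by Cre recombinase. CAV2-Cre, a canine adenovirus that brings Cre and is taken up by axon endings, had been injected into a target region that the labels call NAC or VTA. The 4 groups of 2 arrays each were NAC pull-downs, made with the GFP-binding reagent GFP-trap, VTA pull-downs made the same way, NAC inputs and VTA inputs. The labels give no reagent for the inputs, although their descriptions call the inputs translating mRNA too. Strain, age, sex and the number of animals in an array are not given in the labels. The tag marks any mPFC cell that received Cre, of whatever type.

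NADH dehydrogenase, or complex I, is the first enzyme of the respiratory chain and the largest of its complexes. It takes electrons from NADH, hands them to ubiquinone and pumps protons across the inner mitochondrial membrane, and neurons depend on it for most of their ATP. The 7 ND proteins lie in its membrane arm, while the remaining subunits are coded in the nucleus, translated by cytosolic ribosomes and imported. The mRNAs of the ND genes are made inside the mitochondrion as parts of long polycistronic transcripts and are translated there by mitochondrial ribosomes, which lack the nuclear-coded proteins of cytosolic ribosomes such as Rpl10a. Among the protein genes of mitochondrial DNA, ND6 alone lies on the strand opposite to the others.

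ND6 varied over a wider range of values than each of the other members. Over the 8 arrays ND6 ranged from 9.51 to 11.61, a span of 2.10 on the deposited log2 scale. The span of the other 6 lay between 0.054 for ND4 and 0.31 for ND2.

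ND6, a membrane-arm subunit, stood at 11.55 and 11.61 in the VTA pull-downs, against 9.51 and 10.08 in the VTA inputs (log2). In NAC samples it stood at 10.49 and 11.45 in the pull-downs, against 10.04 and 10.71 in the inputs. Both VTA pull-downs lay above each of the other 6 arrays, while the NAC pull-downs and NAC inputs overlapped, as did the VTA inputs and NAC inputs. Ordered by mean, ND6 was at 11.58 ± 0.04 in VTA pull-downs, 10.97 ± 0.68 in NAC pull-downs, 10.37 ± 0.48 in NAC inputs and 9.79 ± 0.40 in VTA inputs (SD, n = 2 each). Neighbours in that order did not differ beyond their spread: the VTA pull-downs exceeded the NAC pull-downs by 0.61, less than the SD of 0.68 of the NAC pull-downs, and the next pairs overlapped. In every group the array numbered 2 had more ND6 than the array numbered 1, by 0.96 in NAC pull-downs, 0.059 in VTA pull-downs, 0.67 in NAC inputs and 0.56 in VTA inputs (log2).

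**Figure D1:**
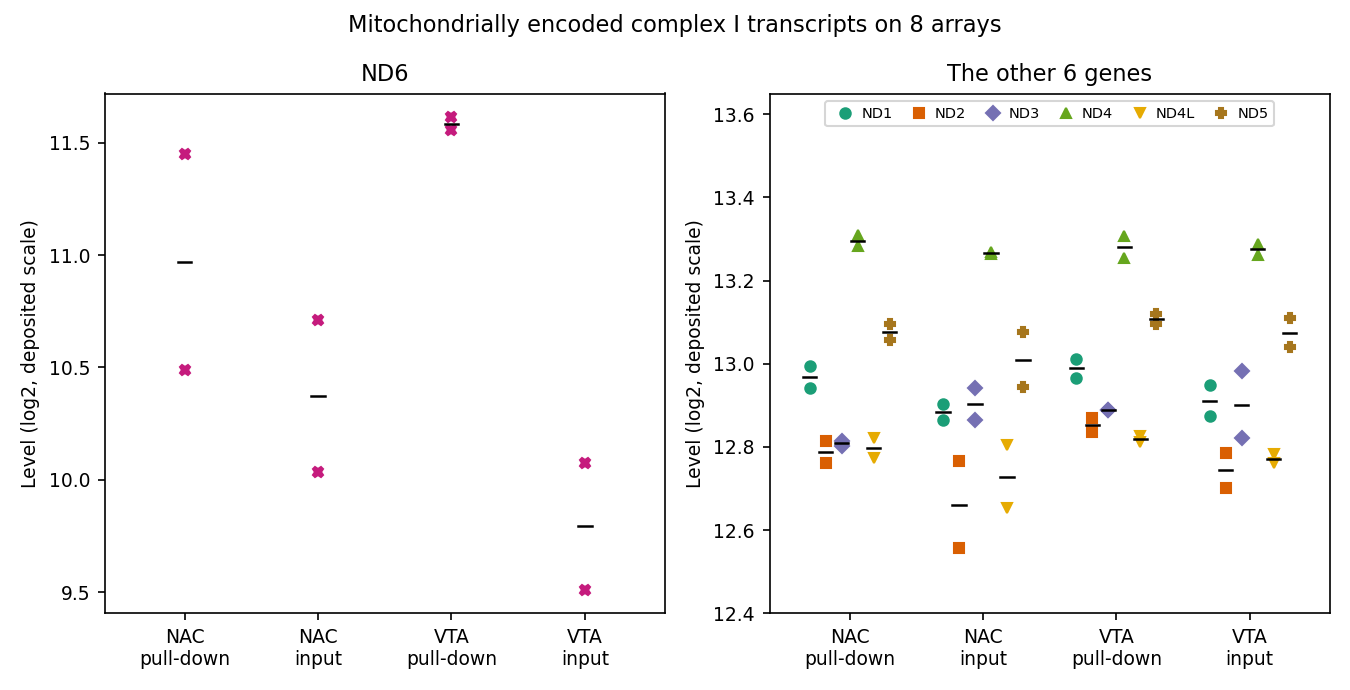
Levels of the 7 ND genes on the 8 arrays (y axis, log2 on the deposited scale), with a point for each array and a bar for the mean of 2 arrays in each group on the x axis. The left panel holds ND6, which spans 9.51 to 11.61, and the right panel holds the other 6, which span 12.56 to 13.31; levels of different probe sets are not comparable with each other.

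ND1, which lies at the joint of the membrane arm with the peripheral arm and helps form the ubiquinone site, read 13.00 and 12.94 in NAC pull-downs, against 12.86 and 12.90 in NAC inputs. In VTA samples it read 13.01 and 12.97 in pull-downs, against 12.95 and 12.87 in inputs. For each target both pull-downs were above both inputs.

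ND2, one of the proton-pumping subunits, read 12.81 and 12.76 in NAC pull-downs, against 12.56 and 12.77 in NAC inputs. The VTA values were 12.87 and 12.84 in pull-downs, against 12.79 and 12.70 in inputs. The NAC groups overlapped, the VTA groups did not, and the first NAC input was the lowest of the 8.

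ND3, a small subunit near the ubiquinone site, read 12.80 and 12.81 in NAC pull-downs, against 12.86 and 12.94 in NAC inputs. In VTA samples it read 12.89 and 12.89 in pull-downs, against 12.98 and 12.82 in inputs. It was the member whose 2 NAC pull-downs both lay below the 2 NAC inputs, and its VTA groups overlapped.

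ND4, a proton-pumping subunit, read 13.31 and 13.28 in NAC pull-downs, against 13.26 and 13.27 in NAC inputs. In VTA samples it read 13.31 and 13.26 in pull-downs, against 13.29 and 13.26 in inputs. These 8 values lay just under the highest value of the whole table, 13.46. On the first NAC input and the first VTA input ND4 was itself the highest value of the array.

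ND4L, a small membrane-arm subunit, read 12.82 and 12.77 in NAC pull-downs, against 12.65 and 12.80 in NAC inputs. The VTA values were 12.83 and 12.81 in pull-downs, against 12.78 and 12.76 in inputs. The value of ND4L is uncertain in its origin, because its probe set is numbered beside a probe set annotated jointly to ATP6, ATP8 and Gm10925 and near one of Adgrb3, and not next to the rest of the ND probe sets. The RefSeq table places Gm10925 and Adgrb3 on chromosome 1 and ATP6 and ATP8 on mitochondrial DNA. Copies of mitochondrial DNA lie in nuclear chromosomes, so signal from a nuclear copy and from the mitochondrial gene cannot be told apart here.

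ND5, the largest of the proton-pumping subunits, read 13.10 and 13.06 in NAC pull-downs, against 12.94 and 13.08 in NAC inputs. For VTA it read 13.12 and 13.10 in pull-downs, against 13.11 and 13.04 in inputs. Its groups overlapped for both targets. Across the 6 genes other than ND6, values lay between 12.56 and 13.31 on every array, under a table maximum of 13.46. Whether the scale is compressed that near its top was not tested.

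The first question put to the data was whether the NAC pull-downs, which took no part in the choice of the family, differed from their inputs. None of the 7 genes was called in limma's test with Benjamini-Hochberg adjustment over all 11712 genes. In that comparison 12.3% of all genes were called, 4.34% higher and 8.01% lower. That split of 508 and 938 genes was 561 and 633 with arrays centred on their medians and 795 and 760 after quantile normalization. At the 12.3% share 7 genes hold few calls in any case, so nothing is read from their count. None of the 7 had an unadjusted p under 0.05 by limma, where 3576 of all 11712 genes did. ND6 had the widest difference, 0.60 (SE 0.30, 95% interval -0.077 to 1.27, 1.51-fold, adjusted p = 0.212). The other 6 differed by -0.094 for ND3 to 0.13 for ND2 (SE 0.087 to 0.10, adjusted p = 0.423 to 0.851), around a median of -0.061 over all genes. Bulk RNA cannot tell fewer cells of a type apart from less RNA per cell. The ND6 value depended on single arrays: without the first NAC pull-down the difference was 1.08 and passed the threshold (adjusted p = 0.0378), and without the second it was 0.12.

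In the inputs alone, the VTA samples were set against the NAC samples to ask whether the tissue RNA already differed by target. The contrast behind the choice of the family holds the VTA inputs, and that choice favoured a low ND6 in them. The direction of ND6 here is therefore a description, and its p-value is not from an independent test. No ND gene was called in limma's test, where 1.5% of all genes were, so nothing is read from that count. None had an unadjusted p under 0.05 by limma, where 1276 of all 11712 genes did. ND6 was at 9.51 and 10.08 in VTA inputs, against 10.04 and 10.71 in NAC inputs, a difference of -0.58 (SE 0.30, 95% interval -1.25 to 0.095, limma adjusted p = 0.523). For the other 6 the differences lay between -0.0012 for ND3 and 0.083 for ND2 (adjusted p = 0.799 to 0.998). Leaving out 1 array at a time gave ND6 differences of -0.92 to -0.24 for the inputs, the smallest without the second NAC input.

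For VTA pull-downs against VTA inputs, the contrast behind the choice of the family, ND6 differed by 1.79 (SE 0.30), which is 3.46-fold. The other 6 differed by -0.013 for ND3 to 0.11 for ND2 (SE 0.087 to 0.10). ND6 was the 1 of 7 genes past the threshold, in a comparison where 31.3% of all genes were called, 5.44% higher and 25.9% lower, and the median over all genes was -0.15. The split of 637 higher and 3034 lower genes was 861 and 1724 with centring and 1177 and 1409 after quantile normalization. Because the family was chosen on these arrays, nothing is read from that count. Without the first VTA input, ND6 differed by 1.51 and was no longer past the threshold.

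VTA pull-downs set against NAC pull-downs gave a difference of 0.61 for ND6 (SE 0.30) and of -0.015 for ND4 to 0.079 for ND3, with 0 of 7 called against 2.47% of all genes. Leaving out 1 array gave 0.14 to 1.09 for ND6, the lowest without the first NAC pull-down and the highest without the second. Averaged over both targets, the pull-down minus input difference of ND6 was 1.19 (SE 0.21), and ND6 was the 1 of 7 past the threshold where 41.5% of all genes were. The pull-down minus input difference in VTA samples less that in NAC samples was 1.19 for ND6 (SE 0.43) and -0.033 to 0.081 for the other 6, with 0 of 7 called against 0.0683% of all genes. These comparisons share arrays with each other and with those above, and all hold the VTA pull-downs that chose the family, so nothing is read from these counts.

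**Figure D2:**
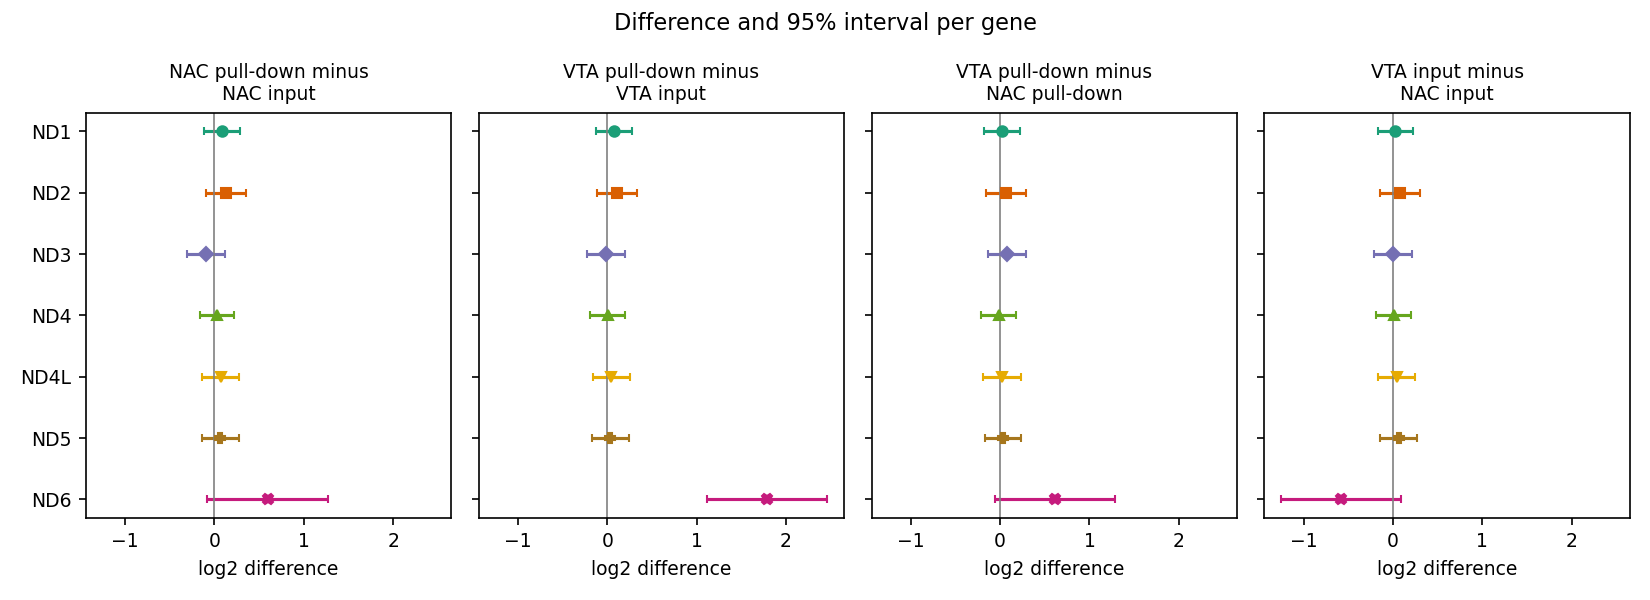
Log2 difference (x axis) of each ND gene (rows) in 4 comparisons, with its 95% interval from the fit over all genes. The 6 upper rows lie within 0.13 of zero in each panel, and ND6 lies at 0.60, 1.79, 0.61 and -0.58 from the left panel to the right one.

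ND6 was also set against the mean of the other 6 within each array, as a description, since those 6 lie near the top of the scale. That offset was -1.45 and -1.36 in VTA pull-downs, against -3.47 and -2.83 in VTA inputs (log2). In NAC pull-downs it was -2.48 and -1.49, against -2.82 and -2.25 in NAC inputs. The change of the offset between pull-down and input was 1.75 in VTA and 0.55 in NAC samples, close to the changes of ND6 alone, and its VTA minus NAC change was -0.62 in the inputs. These offsets do not show that any member stayed constant.

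The other protein genes of mitochondrial DNA with a probe set of their own were COX1 and COX3, subunits of cytochrome c oxidase, and CYTB, the mitochondrial subunit of complex III. In NAC pull-downs against NAC inputs they differed by 0.032, 0.035 and 0.094 (limma adjusted p = 0.843, 0.836 and 0.525). In VTA pull-downs against VTA inputs COX1 differed by 0.027, COX3 by 0.092 and CYTB by 0.12. None of the 3 was called in either comparison or between the inputs, where they differed by at most 0.025. The remaining mitochondrial protein genes shared probe sets with other symbols, and no rRNA or tRNA of mitochondrial DNA was named by a probe set of its own.

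Likeness was measured by Pearson's r over the 8 arrays, which share 4 groups and therefore their group differences. ND2, ND4L and ND5 followed each other at r = 0.95 to 0.97. ND6 had r = 0.54 with ND2, 0.51 with ND1, 0.48 with ND4L, 0.34 with ND5, 0.086 with ND4 and -0.26 with ND3, and r = 0.69 with CYTB. The 5 tested genes nearest to ND6 were all coded in the nucleus: Amn, which codes for amnionless (r = 0.987), Cdr1 (r = 0.987), Tpt1, which codes for translationally controlled tumour protein (r = 0.972), Pgls, an enzyme of the pentose phosphate pathway (r = 0.967), and Rps28, a protein of the small cytosolic ribosomal subunit (r = 0.966). Of the tested genes outside the ND genes, all but COX1, COX3 and CYTB are nuclear, so that shared trait says little. In NAC pull-downs against NAC inputs these 5 differed by 0.28 to 0.54. They were picked for their likeness to ND6 on the same 8 arrays, so their differences follow in part from that choice and no test is given. The 5 genes nearest to the other 6 ND genes, by the mean of r, were COX1 (0.77), Wipf2 (0.766), COX3 (0.73), R3hdm2 (0.711) and Tmem28 (0.71).

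Rpl10a, a gene of the large cytosolic ribosomal subunit, served as the check of the pull-down. It read 12.05 and 12.11 in NAC pull-downs, against 10.92 and 10.94 in NAC inputs, a difference of 1.15 (SE 0.14, limma adjusted p = 0.00235). In VTA samples it read 11.94 and 11.95 in pull-downs, against 9.87 and 10.35 in inputs, a difference of 1.83. Between the inputs Rpl10a fell by 0.82 in VTA samples relative to NAC samples (SE 0.14, limma adjusted p = 0.0133). The mean of ND6 was lower there too, a direction that the choice of the family favoured. The Rpl10a call was lost with no filter (limma adjusted p = 0.0852), without the first NAC input (adjusted p = 0.106), without the second (adjusted p = 0.145) and without the first VTA input (adjusted p = 0.0785). The r between both genes was 0.86 over the 8 arrays.

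The proteins that complete complex I are nuclear-coded, and those of their mRNAs that changed in the NAC pull-downs were higher. Of 31 tested subunit genes, 15 rose and 0 fell in NAC pull-downs against NAC inputs, where 4.34% of all genes were higher and 8.01% lower, with a median difference of 0.39 against -0.061 for all genes. Ndufa1 rose by 0.84 (SE 0.099, adjusted p = 0.00222), Ndufa7 by 0.84 (SE 0.098, adjusted p = 0.00222) and Ndufa5 by 0.74 (SE 0.12, adjusted p = 0.00852). All 3 code for accessory subunits, and accessory genes made up 14 of the 15, out of 25 tested, with a median of 0.49. The nuclear-coded core subunits, among them those that carry the flavin and the iron-sulphur clusters, had a median of 0.21 over 6 tested genes. Of these, Ndufv2 rose by 0.39 (adjusted p = 0.0472). Ndufv1 differed by 0.23, Ndufs7 by 0.21, Ndufs3 by 0.20, Ndufs8 by 0.12 and Ndufs1 by -0.082, none past the threshold. A second probe set differed by 0.57 for Ndufa8, 0.86 for Ndufa12 and 0.21 for Ndufa11, where those used differed by 0.055, 0.49 and 0.73. The difference between core and accessory genes was not tested. The count of 15 was 4 without the second NAC pull-down, 5 without the first NAC input, 3 without the second NAC input and 3 with no filter on low values.

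In VTA pull-downs against VTA inputs, 17 of the 31 were higher past the threshold and 0 lower, where 5.44% of all genes were higher, with a median of 0.33. The widest were Ndufb10 at 0.87, Ndufa11 at 0.76 and Ndufa7 at 0.75, all accessory subunits, where ND6 was at 1.79 and the other ND genes at 0.11 or less. Leaving out the first VTA input lowered that to 5 genes, and leaving out the second lowered it to 11. Between the inputs, and between the pull-downs, 0 of 31 were called in limma's test, where 1.5% and 2.47% of all genes were. Their medians were 0.019 and -0.036. Between the inputs 3 of 31 had an unadjusted p under 0.05 by limma, where 1276 of all 11712 genes did.

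**Figure D3:**
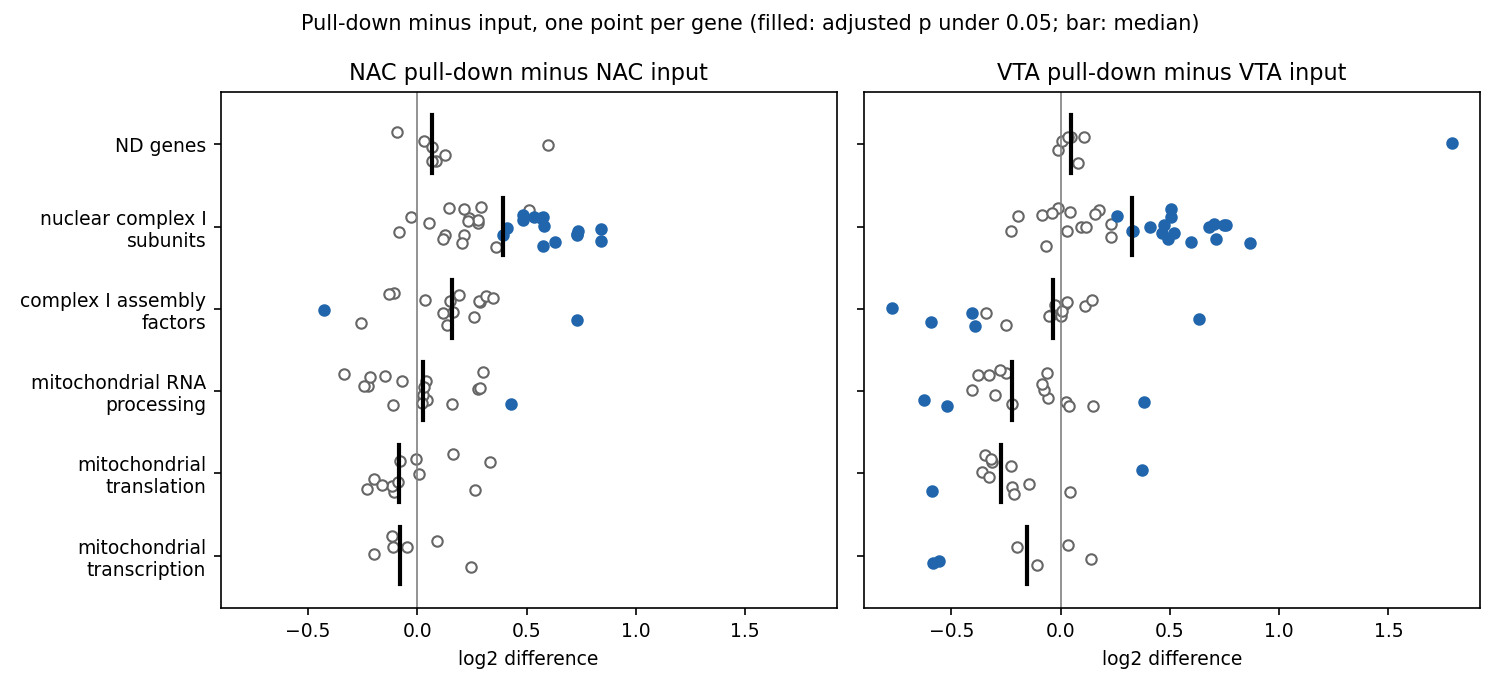
Log2 difference between pull-down and input (x axis) for the ND genes and for nuclear gene lists of complex I and of mitochondrial gene expression (rows), for NAC on the left and VTA on the right. Each point is a gene, filled where its adjusted p was under 0.05, and the bar is the list's median: 0.070 for the ND genes and 0.39 for the nuclear subunits in NAC samples, 0.048 and 0.33 in VTA samples.

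Complex I is put together with the help of assembly factors, which are not part of the finished enzyme. Over all genes 4.34% were higher and 8.01% lower in NAC pull-downs against NAC inputs, and 5.44% were higher in the VTA comparison. The calls of the assembly factors lay near the shares over all genes for both targets, so nothing is read from their counts. Of 16 tested, Ndufaf2 rose by 0.73 in NAC pull-downs against NAC inputs (adjusted p = 0.00314) and Foxred1 fell by 0.43 (adjusted p = 0.0461), a call that was lost with arrays centred on their medians and without the second NAC pull-down or any single input. In VTA pull-downs against VTA inputs, 1 was higher past the threshold, Ndufaf2 at 0.63, and 4 of 16 were lower, among them Foxred1 at -0.77 and Tmem126b at -0.59, where 25.9% of all genes were lower. Those 4 were 1 or 2 under either other scaling of the arrays and 1 without the first VTA pull-down or either VTA input.

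The machinery that makes and keeps mitochondrial mRNAs had few called genes in NAC samples, where 12.3% of all genes were called. At that share, lists of 6 to 17 genes hold few calls in any case, so nothing is read from these counts. Of 6 tested genes of mitochondrial transcription none changed in NAC pull-downs against NAC inputs, with Polrmt, the mitochondrial RNA polymerase, at 0.091 and Tfam, which packs and activates mitochondrial DNA, at -0.11. Of 17 genes of mitochondrial RNA processing and stability, Fastkd3 rose by 0.43 (adjusted p = 0.0335), a call lost in each fit that left out a NAC array or a VTA input. Grsf1, a protein of mitochondrial RNA granules that binds ND6 mRNA in human cells, differed by 0.045. Fastk, whose mitochondrial form is needed for ND6 mRNA in mouse and human cells, differed by 0.28 (adjusted p = 0.147). Lrpprc, which stabilises the mRNAs of the strand opposite to ND6, differed by -0.15 (adjusted p = 0.414). Of 12 mitochondrial translation factors none was called. An unadjusted p under 0.05 by limma was found for 1 of these 12, 4 of the 17 RNA processing genes and 0 of the 6 transcription genes. Over all genes 3576 of 11712 had such a p.

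In VTA pull-downs against VTA inputs these lists had medians of -0.15 for transcription, -0.22 for RNA processing and -0.27 for translation factors, against -0.15 for all genes. Fastk was at 0.38 and past the threshold, Grsf1 at -0.25 and Lrpprc at -0.22. The widest lower values past the threshold were Fastkd2 at -0.62, Fastkd1 at -0.52, Tfb2m at -0.58, Mterf2 at -0.55 and Mtrf1l, a release factor, at -0.59, and Tsfm, an elongation factor, was at 0.37. Tfb2m had 2 more probe sets, at -1.15 and 0.61, so its direction is unsettled. Without the first VTA input no gene of these 3 lists was called. Between the inputs, no gene of these lists or of the assembly factors was called in limma's test, where 1276 of all genes had an unadjusted p under 0.05, among them 2 assembly factors and 1 gene of each other list. With only the input arrays fitted, 1 transcription gene and 1 RNA processing gene were called.

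The labelled source was checked against cell type markers. Among glial markers, 5 of 6 oligodendrocyte, 6 of 7 microglial and 5 of 7 astrocyte genes fell in NAC pull-downs against NAC inputs. Their medians were -0.67, -0.61 and -0.48. In VTA pull-downs against VTA inputs these medians were -0.49, -0.52 and -0.51, against -0.15 for all genes. Endothelial and mural genes had medians of -0.37 and -0.52 in NAC samples and -0.28 and -0.42 in VTA samples. The summed level of 6 oligodendrocyte markers was 12.15 to 12.22 in NAC pull-downs against 12.80 to 12.82 in NAC inputs (log2). Over all genes 8.01% were lower in NAC pull-downs against NAC inputs, with a median of -0.061. The 5 genes of glutamatergic projection neurons had a median of -0.016, with Neurod6 higher by 0.44 (adjusted p = 0.0396), a call lost in each fit that left out a NAC array or a VTA input. The 5 had a median of -0.23 in VTA pull-downs against VTA inputs, where none was above 0 and Nrn1 at -0.42 and Tbr1 at -0.27 were past the threshold, both of them not so without either VTA input or the first VTA pull-down. Nrn1, which encodes neuritin, stood at -0.73 in VTA pull-downs against NAC pull-downs. Of 7 genes of GABAergic interneurons, 3 fell in NAC pull-downs against NAC inputs, and 1 or 0 without any single NAC array. The glial counts were 3 or fewer without the second NAC pull-down or either NAC input. The summed level of 7 microglial markers was 11.51 to 11.54 in VTA inputs, against 12.29 to 12.33 in NAC inputs (log2). It was 11.04 to 11.12 in VTA pull-downs against 11.68 to 11.75 in NAC pull-downs. Gfap, an astrocyte filament gene, fell by 0.84 in VTA inputs against NAC inputs (limma adjusted p = 0.00144) and stood at -1.22 in VTA pull-downs against NAC pull-downs. The astrocyte list did not follow Gfap. Its 7 genes had a median of -0.060 between the inputs, with 2 above 0, and of 0.043 between the pull-downs, with 5 above 0. The part of these shifts in the ND6 values was not tested.

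A last set of values concerns probe sets with no gene name whose numbers lie next to that of ND6. They were chosen after their values were seen. The probe sets of the ND genes, COX1, COX3 and CYTB are numbered in the order of the genes along mitochondrial DNA, apart from ND4L, and ND6 comes after CYTB although its gene lies before it. Between CYTB and ND6 lie 7 unnamed numbers, and 2 more follow ND6. All 9 followed ND6 over the 8 arrays, at r = 0.82 to 0.96. The 7 between CYTB and ND6 were higher in VTA pull-downs than in VTA inputs by 0.65 to 1.73, with a median of 1.43, and lower in VTA inputs than in NAC inputs by a median of -0.46. In NAC pull-downs against NAC inputs they differed by -0.038 to 0.35, with a median of 0.022, where ND6 differed by 0.60. Their array numbered 2 exceeded their array numbered 1 by a median of 1.18 in NAC pull-downs, 0.20 in VTA pull-downs, 1.10 in NAC inputs and 0.99 in VTA inputs. Which transcript or strand these probe sets read is not given in the sources used here.

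**Figure D4:**
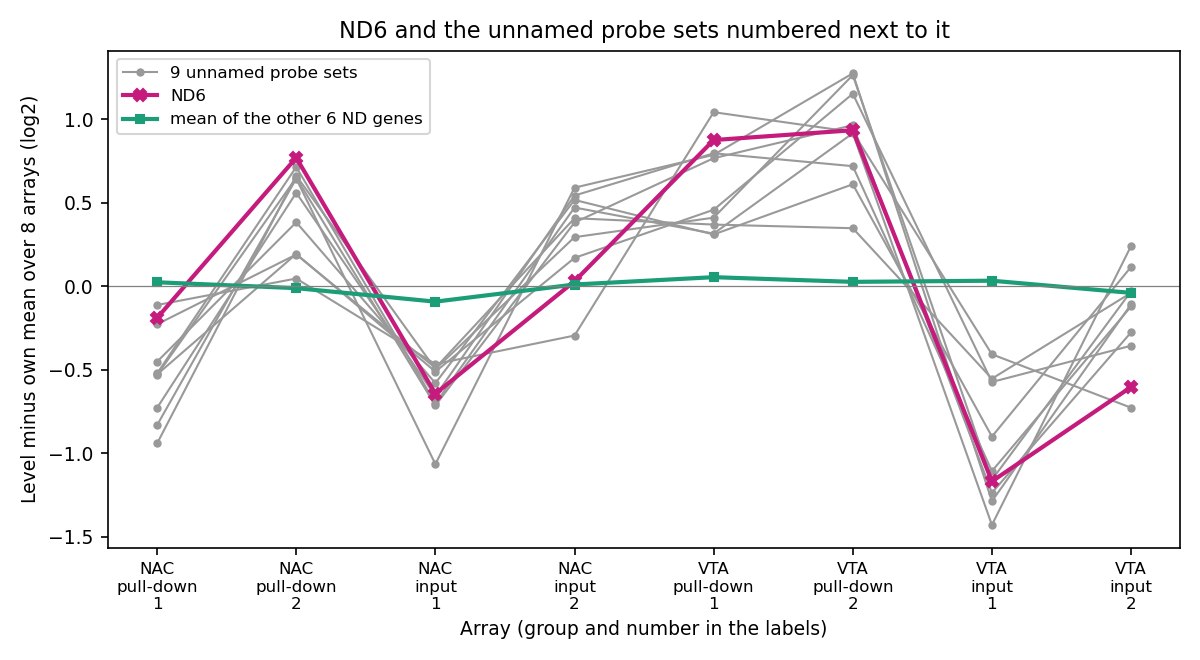
Level of ND6, of the 9 unnamed probe sets numbered next to it and of the mean of the other 6 ND genes on each array (x axis), each as log2 distance from its own mean over the 8 arrays (y axis). ND6 and the 9 lie high on the VTA pull-downs and low on the first array of both inputs and of the NAC pull-downs. The mean of the other 6 stays near zero.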

How the data were processed

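Expression arrays of mouse mPFC were analysed from the deposited series table of 41345 probe sets on 8 arrays. Per the submitters' processing notes the authors used Transcriptome Analysis Console to make these deposited log2 values; the sources used here give neither its version nor its settings, and arrays carry no read depth, so their number limits the precision. Names came from the platform annotation (23521 with 1 symbol, 1814 with several, 16010 with none), and 23328 of the single symbols were found by Entrez identifier in a RefSeq gene table of mouse assembly GRCm38.p6, which was used for names and gene order only. Of several probe sets of a gene the one with the highest mean was kept, and genes above the array median on at least 2 of 8 arrays were tested.

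A mean per group was fitted with limma 3.58.1 in R 4.3.3 (4 residual and 6.07 prior degrees of freedom), two-sided, with Benjamini-Hochberg adjustment over 11712 genes and a threshold of 0.05. The labels do not say that arrays are separate animals, so p-values reflect only how these samples spread, which may be technical. Gene members and lists were chosen with earlier results of these data known. Named were all 7 ND genes, other mitochondrial genes, Rpl10a, a group of complex I and RNA-binding genes, and up to 3 genes with the widest called difference per list and comparison. Other scalings, filters, probe set choices, variance models, blocks and left-out arrays were tried.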

Additional observations from a re-analysis of the deposited data

Results flagged for a closer look

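Signal outside the named genes was found in 6 of the 9 unnamed probe sets numbered next to ND6, in which both VTA pull-downs lay above all 4 input arrays. Their VTA pull-down minus VTA input differences were 1.55 for 17532635, 1.62 for 17532637, 1.73 for 17532639, 1.37 for 17532641, 1.43 for 17532647 and 1.27 for 17532653 (log2, 2 arrays against 2). Both NAC pull-downs lay above all input arrays in 1 of the 9. The share of all probe sets with such a separation is not given here, so nothing is read from either count. The comparison is the one that chose the family, and the probe sets were picked for their place beside ND6 after their values were seen, so no test is given. No group was large enough for a search for single outlying arrays, as each held 2.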

How the results depend on the processing

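The direction of ND6 held in the NAC pull-down and input comparisons under every alternative run, but its calls did not. In the 4 others, which hold the VTA pull-downs, the choice of the family favoured the direction. It also favoured a low ND6 in the VTA inputs, so nothing is read from the stable direction between the inputs. In NAC pull-downs against NAC inputs 0 ND genes were called, and 1 with a replicate block that pairs pull-down and input by number (ND6, 0.60, adjusted p = 0.0326). Leaving out 1 array at a time gave 0 to 1 there, 1 without the first NAC pull-down. The ND6 difference ranged over 0.12 to 1.08, with adjusted p of 0.0326 to 0.43 over the settings that kept all arrays. Deviations of same-numbered arrays correlated over genes at r = 0.30 between NAC pull-downs and NAC inputs, 0.22 between VTA and NAC inputs and 0.18 between NAC pull-downs and VTA inputs. With VTA pull-downs r was -0.02 for VTA inputs, -0.07 for NAC inputs and -0.13 for NAC pull-downs, so not every pair exceeded 0.1 and the numbers are not shown to pair the samples. Both the block with 1 number shared by all groups and the crossed one for the pull-downs were added after seeing the data, and neither changed a count of ND genes called. For VTA pull-downs against VTA inputs leaving out 1 array gave 0 to 1 called and ND6 differences of 1.51 to 2.07. The averaged comparison called 3 with a trended, robust variance, ND1 and ND2 beside ND6. A lone array left in a group was assumed to vary like the others.

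Near-zero differences turned sign. In NAC pull-downs against NAC inputs ND4L ranged from -0.0060 (without the first NAC input) to 0.15 when 1 array was left out. Between the inputs, ND4 was -0.0006 with arrays centred on their medians and ND3 was 0.024 with quantile normalization. There, leaving out 1 array gave -0.0093 to 0.066 for ND1, -0.023 to 0.19 for ND2, -0.082 to 0.080 for ND3, -0.0044 to 0.022 for ND4, -0.032 to 0.12 for ND4L and -0.0011 to 0.13 for ND5. In the 4 comparisons that hold VTA pull-downs, 33 of 462 values turned sign, none larger than 0.088 afterwards. The cause was not tested.

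Counts over all genes depended on the setting. In NAC pull-downs against NAC inputs the 1446 calls were 105 with no filter and 149 to 177 without the second NAC pull-down or either NAC input, and 863 without either VTA input. The 176 calls between the inputs were 87 with the stricter filter and 100 to 109 without either VTA input or the second NAC input. For VTA pull-downs against VTA inputs the 3671 calls were 1907 with no filter and 415 without the first VTA input, 1941 without the second and 1795 without the first VTA pull-down. The 289 calls between pull-downs were 113 with no filter, 550 with the trended, robust variance, 119 with only the arrays compared and 151 without the first NAC pull-down. The 4866 averaged calls were 3160 without the first NAC input and 3068 without the first VTA input. The 8 calls for the difference of enrichment ranged over 1 to 29, and the crossed block gave 171 calls between pull-downs. Pairing within a target cannot be fitted between targets, and was not run there.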
